A study of Homo sapiens with 6 samples.

Results

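FOS, FOSL1, FOSL2, JUN, JUNB, JUND, EGR1, ATF3, IER2 and DUSP1 were followed in HCT116 cells that overexpressed RBM47. They are 6 subunits of the transcription factor AP-1 and 4 immediate early genes. They were taken by gene symbol from the deposited tables, and each symbol matched 1 row. The 10 genes were among 28491 genes in the count table and 28244 in the FPKM table, and all 10 were among the 16260 genes that passed the filter on low counts.

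HCT116 is a human colorectal carcinoma cell line. Poly(A) RNA was sequenced 48 h after Lipofectamine transfection, from 3 libraries of cells given a control plasmid (NC) and 3 libraries of cells given an RBM47 plasmid (RBM47-OE). The labels name the construct as pcDNA3.1-3xFlag-RBM47, whereas the methods name pIRES-hrGFP-1a. Every library came from this single line with a transient transfection, and no sorting of transfected cells is described. The sources do not say whether the 3 libraries of a group came from separate cultures, so p-values measure only the spread between these libraries.

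AP-1 is a dimer of basic leucine zipper proteins, usually 1 of the FOS family with 1 of the JUN family, and it binds the DNA element TGACTCA. Immediate early genes are switched on by growth factor, serum or stress signals without new protein synthesis. MAP kinases drive them through SRF and ELK factors, and their mRNAs are commonly short-lived. FOSL1 and JUN are known in epithelial tumor cells for roles in migration and invasion.

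The 6 libraries held 26792409 to 35477983 counts on genes, and each of the 10 genes had 293 to 11322 counts in every library. RBM47 itself had 1.91, 2.33 and 1.94 FPKM (fragments scaled to gene length and library size) in NC replicates 1, 2 and 3. In RBM47-OE it had 131.3, 130.41 and 127.04 FPKM. RBM47-OE over NC gave a log2 fold change of 5.90 (SE, the standard error, 0.096, edgeR adjusted p = 1.69e-25), and the level was nearly the same in the 3 RBM47-OE libraries. Of 8 epithelial markers, 7 reached 1 FPKM, and VIL1 stayed at 0.09 FPKM or less. The summed level of the 8 was 1964.46 to 2140.19 FPKM in NC and 1824.23 to 2067.81 FPKM in RBM47-OE. Of 6 fibroblast markers only COL1A1 reached 1 FPKM (1.31 to 1.72), and of 6 leukocyte markers none did. The summed leukocyte level was 0.48 to 0.59 FPKM in NC and 0.28 to 0.35 in RBM47-OE, with PTPRC not listed.

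Promoter sequences from RefSeq (GRCh38.p14) matched 9 of the 10 genes by symbol, and FOSL1 was not matched. The 250 bases before the start are shown for JUN and DUSP1, which fell in RBM47-OE, and for EGR1 and FOS, which differed most between RBM47-OE libraries among the genes with 1 window. The motifs were searched on both strands, and capitals mark each match. They were TGACTCA and TGACGTCA (the AP-1 and CRE elements), TGACATCA (a variant known from the JUN promoter), the CArG box bound by SRF, TATAAA, and the EGR element GCGGGGGCG. No match overlapped another in these windows.

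JUN (chr1:58784048-58784297, minus strand): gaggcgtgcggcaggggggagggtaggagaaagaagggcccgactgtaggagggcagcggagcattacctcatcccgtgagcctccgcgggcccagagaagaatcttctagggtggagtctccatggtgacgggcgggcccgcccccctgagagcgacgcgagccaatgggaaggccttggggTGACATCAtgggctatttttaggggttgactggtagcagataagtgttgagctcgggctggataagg
DUSP1 (chr5:172771196-172771445, minus strand): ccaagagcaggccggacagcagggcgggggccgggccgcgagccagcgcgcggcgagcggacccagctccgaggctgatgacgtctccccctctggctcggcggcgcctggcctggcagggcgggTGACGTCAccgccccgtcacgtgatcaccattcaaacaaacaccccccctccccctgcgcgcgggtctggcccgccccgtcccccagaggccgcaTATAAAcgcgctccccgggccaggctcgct
EGR1 (chr5:138465229-138465478, plus strand): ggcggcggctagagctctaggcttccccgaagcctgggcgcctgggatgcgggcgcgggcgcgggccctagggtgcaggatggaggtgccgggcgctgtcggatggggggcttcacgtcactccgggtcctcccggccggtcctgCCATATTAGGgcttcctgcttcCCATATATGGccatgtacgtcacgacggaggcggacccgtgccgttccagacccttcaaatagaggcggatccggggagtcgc
FOS (chr14:75278578-75278827, plus strand): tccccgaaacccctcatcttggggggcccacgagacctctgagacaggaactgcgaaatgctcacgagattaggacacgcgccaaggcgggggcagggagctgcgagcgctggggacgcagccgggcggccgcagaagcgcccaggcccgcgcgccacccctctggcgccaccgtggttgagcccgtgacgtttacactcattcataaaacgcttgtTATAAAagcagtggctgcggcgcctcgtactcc

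JUN carried TGACATCA 67 to 60 bases before its start, and ATF3 carried the same letters 123 to 116 bases before 1 of its 2 starts. This element was in 2.375% of the 35116 windows of the same length in the table. TGACGTCA stood in the windows of DUSP1 and JUND and in 1.646% of all windows. EGR1 had 2 CArG boxes, 105 to 96 and 83 to 74 bases before the start, a motif held by 1.159% of all windows. TATAAA was in the windows of FOS, JUNB, DUSP1 and ATF3 and in 10.72% of all windows. TGACTCA and GCGGGGGCG, in 4.203% and 4.724% of all windows, matched none of the 10 windows of the 9 genes. These are matches of letters in a short window and not sites shown to be bound.

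Differences in counts were tested by the quasi-likelihood method of edgeR over all 16260 genes, with TMM scaling and Benjamini-Hochberg adjustment. FOSL1, JUN and DUSP1 fell at an adjusted p-value under 0.05, and none of the other 7 genes passed. Thus 3 of 10 fell and 0 of 10 rose. Over all genes tested, 16.9% were called lower and 19.1% higher. In the bins of like GC content that hold these 10 genes (below), 18.2% to 37.4% of genes were called lower and 0.308% to 3.08% higher. At an unadjusted p-value under 0.05, 4 of the 10 were lower and 0 higher, and DESeq2 and limma also called 0 higher. The study applied its thresholds (unadjusted p under 0.01, fold change over 1.5) to DESeq2, and here they were applied to edgeR. None of the 10 met them, while 0.873% of all genes tested met them as lower and 1.51% as higher. With 1 library left out the count of genes called lower ran from 2 to 5. It was 5 without RBM47-OE replicate 2, when ATF3 and IER2 passed too, and 2 without NC replicate 3 or RBM47-OE replicate 3. Without RBM47-OE replicate 3, 1 gene (EGR1) was called higher. The median log2 fold change of the 10 genes was -0.13, beside 3.96e-05 for all genes tested. In 4 of the 10 genes (FOSL1, JUN, JUND and DUSP1) all RBM47-OE libraries lay below all NC libraries, and in 0 they lay above. Over all genes, 23.4% were separated in this way as lower and 23.2% as higher. An exact two-sided permutation test on such a gene cannot go below p = 0.1 with 3 libraries a group. In bulk RNA, fewer cells that express a gene and less RNA per cell cannot be told apart.

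**Figure D1:**
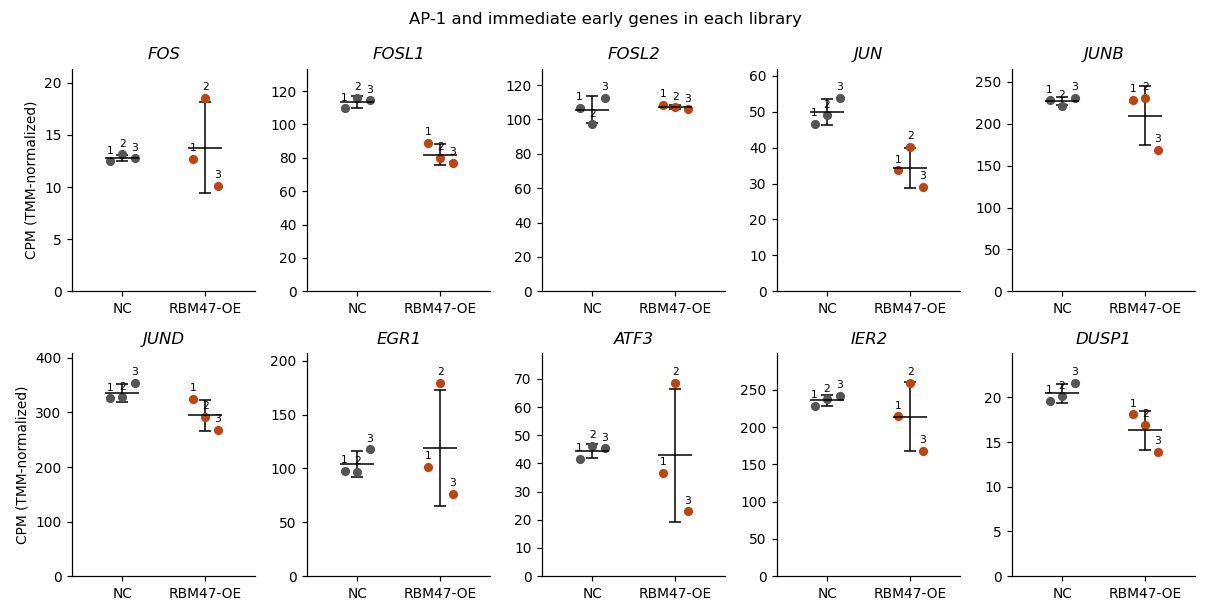
CPM (counts scaled to the TMM library size, from 0) of the 10 genes in each library. Points are libraries with their replicate number, and the horizontal line and bars are the mean and SD of 3 libraries. For FOSL1, JUN, JUND and DUSP1 every RBM47-OE point lies below every NC point, and for EGR1, ATF3, FOS and IER2 replicate 2 is the highest and replicate 3 the lowest of all 6.

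Among the FOS family, FOSL1 was the member that changed. It encodes FRA-1, a FOS protein without the C-terminal activation domain of FOS itself, and its GRCh38 position is chromosome 11, 65892049 to 65900573, minus strand. It had 109.7, 116.1 and 114.5 CPM in the NC replicates and 88.9, 79.99 and 76.9 CPM in the RBM47-OE replicates. The groups did not overlap, and the highest RBM47-OE library was well below the lowest NC library. NC averaged 113.4 ± 3.31 CPM and RBM47-OE 81.9 ± 6.25 CPM (SD, n = 3 each), a fold of 0.722. Its log2 fold change was -0.47 (SE 0.073, edgeR adjusted p = 6.07e-05). With each library left out in turn it stayed between -0.53 and -0.43, with an adjusted p of at most 0.00162.

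FOSL2, which encodes FRA-2, lies on chromosome 2 from 28392448 to 28417317. It had 106.8, 97.2 and 112.7 CPM in NC and 108.6, 107.0 and 105.9 CPM in RBM47-OE. The RBM47-OE values fell inside the NC range, and the log2 fold change was 0.02 (SE 0.072, edgeR adjusted p = 0.841). FOSL2 had the narrowest spread of the 10 genes in RBM47-OE, with an SD of log2 CPM of 0.0187, larger than that of 1.2% of all genes tested. FOS, the founding subunit of the family, lies on chromosome 14 from 75278826 to 75282230. It had 12.5, 13.1 and 12.8 CPM in NC and 12.7, 18.6 and 10.1 CPM in RBM47-OE. The NC libraries lay close together, while RBM47-OE replicate 2 lay above and replicate 3 below all of them. RBM47-OE over NC gave a log2 fold change of 0.11 (SE 0.14, edgeR adjusted p = 0.589).

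On the FPKM scale, which corrects for gene length, FOSL1 was the most abundant FOS family mRNA. In NC it had 51.8 ± 1.73 FPKM (SD, n = 3), against 12.7 ± 0.928 for FOSL2 and 3.46 ± 0.1 for FOS. The summed FPKM of the 3 genes was 65.98, 68.44 and 69.42 in NC and 58.67, 58.59 and 52.99 in RBM47-OE. FOSL1 made up 75.5%, 77.7% and 75.5% of that sum in NC and 71.1%, 67.1% and 69.4% in RBM47-OE. The share of FOSL2 was 19.4%, 17.1% and 19.6% in NC and 22.9%, 23.7% and 25.2% in RBM47-OE. The groups did not overlap for the sum or for either share.

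Among the JUN family, JUN was the member that changed. JUN encodes c-Jun, the main partner of FOS proteins and a substrate of the JNK kinases, and its position is chromosome 1, 58776845 to 58784048, minus strand. It had 46.7, 48.9 and 53.9 CPM in NC and 33.7, 40.2 and 29.1 CPM in RBM47-OE. Every RBM47-OE library was lower than every NC library, with replicate 3 the lowest. NC averaged 49.9 ± 3.69 CPM and RBM47-OE 34.3 ± 5.61 CPM (SD, n = 3 each), a fold of 0.689, which was the largest change among the 10 genes. The fitted log2 fold change was -0.54 (SE 0.096, edgeR adjusted p = 0.000199). It ranged from -0.67 to -0.43 with each library left out, with an adjusted p of at most 0.00326.

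JUNB, a JUN protein that often restrains c-Jun, lies on chromosome 19 from 12791486 to 12793315. It had 228.2, 221.5 and 231.3 CPM in NC and 228.6, 231.2 and 168.7 CPM in RBM47-OE. RBM47-OE replicates 1 and 2 lay within the NC range and replicate 3 below it. The log2 fold change was -0.12 (SE 0.088, edgeR adjusted p = 0.33). JUND, a JUN protein present at steady levels in resting cells, lies on the minus strand of chromosome 19 from 18279694 to 18281622. It had 325.9, 327.5 and 354.9 CPM in NC and 324.5, 291.6 and 268.4 CPM in RBM47-OE. The groups did not overlap, but RBM47-OE replicate 1 was just under the lowest NC library. Its log2 fold change was -0.19 (SE 0.076, edgeR adjusted p = 0.0534), and without RBM47-OE replicate 1 it was -0.26 with an adjusted p of 0.00175.

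JUN was a minor part of the JUN family mRNA. On the FPKM scale JUND had 150.1 ± 7.58, JUNB 106.9 ± 2.26 and JUN 11.9 ± 0.909 FPKM in NC (SD, n = 3). JUN made up 4.20%, 4.44% and 4.57% of the summed FPKM of the 3 genes in NC and 3.07%, 3.85% and 3.35% in RBM47-OE. The sum itself was 262.8, 262.95 and 280.73 FPKM in NC and 267.75, 267.69 and 216.08 FPKM in RBM47-OE, so its groups overlapped.

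DUSP1, the phosphatase MKP-1 that inactivates p38, JNK and ERK kinases and is itself an immediate early gene, lies on the minus strand of chromosome 5 from 172768096 to 172771195. It had 19.6, 20.1 and 21.7 CPM in NC and 18.1, 16.9 and 13.9 CPM in RBM47-OE. The groups did not overlap, although RBM47-OE replicate 1 lay close to the lowest NC library. RBM47-OE over NC gave a log2 fold change of -0.33 (SE 0.10, edgeR adjusted p = 0.0166). This call did not hold without NC replicate 3 (-0.28, adjusted p = 0.0914) or without RBM47-OE replicate 3 (-0.23, adjusted p = 0.0995).

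EGR1, ATF3 and IER2 did not pass the test, and their RBM47-OE libraries were far apart. EGR1, a zinc-finger factor that SRF induces through CArG boxes, lies on chromosome 5 from 138465479 to 138469303. It had 97.6, 97.1 and 117.8 CPM in NC and 101.7, 179.8 and 76.3 CPM in RBM47-OE. Replicate 2 was the highest and replicate 3 the lowest of all 6 libraries, with replicate 1 within the NC range. The fitted log2 fold change was 0.20 (SE 0.16, edgeR adjusted p = 0.374). It was -0.23 without RBM47-OE replicate 2 (adjusted p = 0.124) and 0.43 without replicate 3 (adjusted p = 0.0212).

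ATF3, a stress-induced bZIP factor that can pair with JUN proteins, lies on chromosome 1 from 212565334 to 212620777. It had 41.6, 46.2 and 45.3 CPM in NC and 36.8, 68.7 and 23.0 CPM in RBM47-OE. No RBM47-OE library lay within the NC range, since replicate 2 was above it and replicates 1 and 3 below. The log2 fold change was -0.05 (SE 0.19, edgeR adjusted p = 0.873), and without RBM47-OE replicate 2 it was -0.57 (adjusted p = 0.00601). IER2, a small nuclear protein gene induced by serum, lies on chromosome 19 from 13150411 to 13154911. It had 228.3, 237.3 and 242.2 CPM in NC and 214.3, 259.95 and 167.9 CPM in RBM47-OE. Replicate 2 again lay above and replicate 3 below all NC libraries. Its log2 fold change was -0.14 (SE 0.098, edgeR adjusted p = 0.283), and without RBM47-OE replicate 2 it was -0.30 (adjusted p = 0.0166).

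The levels of the 10 genes, compared per length in NC, ran from JUND through JUNB, IER2, FOSL1, EGR1, FOSL2, JUN, ATF3 and DUSP1 down to FOS. IER2 had 66.0 ± 2.22, EGR1 28.6 ± 3.30, ATF3 9.46 ± 0.554 and DUSP1 8.76 ± 0.478 FPKM (SD, n = 3). The NC ranges of FOSL2 and JUN overlapped, as did those of ATF3 and DUSP1, and the other 7 neighbouring pairs were apart. JUND stood above 98.7% of protein-coding genes in NC and FOS above 56.7%.

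**Figure D2:**
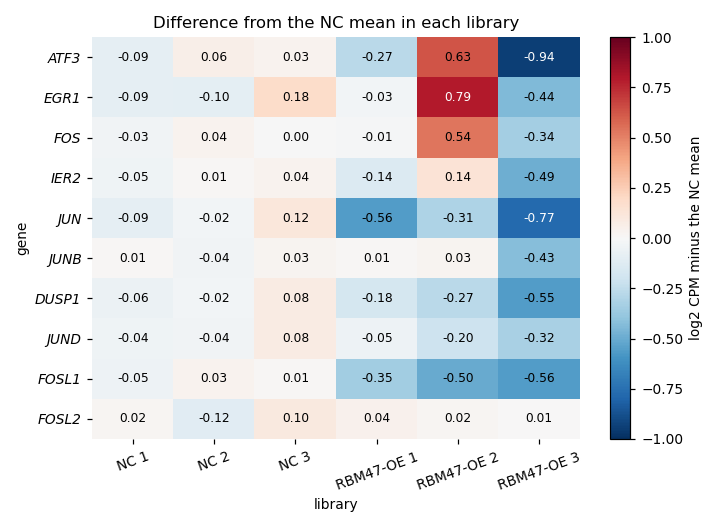
Difference of log2 CPM from the mean of the NC libraries for each gene (rows) and library (columns), with the value printed in each cell and blue for lower, red for higher. RBM47-OE replicate 2 holds 0.79 for EGR1, 0.63 for ATF3 and 0.54 for FOS, and replicate 3 holds -0.44, -0.94 and -0.34. FOSL1, JUN, JUND and DUSP1 are below 0 in all 3 RBM47-OE libraries.

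ATF3, EGR1, FOS and IER2 differed most between RBM47-OE replicates 2 and 3. The difference in log2 CPM between replicate 2 and replicate 3 was 1.58 for ATF3, 1.24 for EGR1, 0.88 for FOS and 0.63 for IER2. It was 0.47 for JUN and 0.45 for JUNB, and between 0.02 and 0.28 for FOSL2, FOSL1, JUND and DUSP1. All 10 genes were higher in replicate 2 than in replicate 3, beside 47.7% of all genes tested, and 4 of 10 differed by over 0.5 in that direction, beside 6.62% of all genes. RBM47 itself did not separate these libraries (-0.00116). The SD of log2 CPM among the RBM47-OE libraries was 0.791 for ATF3, larger than that of 98.5% of all genes tested. It was 0.629 for EGR1 and 0.442 for FOS, larger than that of 96.8% and 91.9%. The same 3 genes had NC SDs of 0.0794, 0.159 and 0.0365. These are single libraries, so the difference between them has no test.

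Some genes of a list of 40 other immediate early genes also differed between the same libraries. Of the 40, 33 were higher in RBM47-OE replicate 2 than in replicate 3. GADD45B (0.98), GADD45A (0.87), PPP1R15A (0.84), KLF2 (0.74), KLF10 (0.51) and ID1 (0.50) were the 6 that differed by over 0.5, and 0 differed by that much in the other direction. Most of the list differed less, among them EGR3 (0.07), NR4A1 (0.08), IER5 (0.05) and NR4A2 (-0.25). GADD45A and GADD45B encode growth arrest and stress proteins, PPP1R15A a subunit that reverses the stress block of translation, KLF2 and KLF10 zinc-finger factors, and ID1 an inhibitor of helix-loop-helix factors. Among 14 other bZIP genes tested, JDP2 (1.29), ATF4 (0.98), CREB5 (0.89) and BATF2 (0.57) were higher in RBM47-OE replicate 2 by over 0.5. Of all genes tested, 6.62% were. CREB5 and BATF2 were low, at 0.724 to 1.40 CPM and 1.72 to 4.41 CPM over the 6 libraries. JDP2 encodes a repressor that dimerizes with JUN proteins, and ATF4 encodes the main factor of the amino acid and unfolded protein responses. Genes named in this paragraph were chosen after their values were seen.

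All 10 genes had exons richer in GC than the median gene tested. Their exonic GC content ran from 50.2% in ATF3 to 69.9% in JUND, with a median of 55.3%, against 48.98% for all genes. In these libraries the log2 fold change followed GC content. Among 10 bins of genes by GC content, the median log2 fold change was 0.38 in the lowest bin and -0.23 in the highest, which holds JUNB, JUND and IER2. In that bin 37.4% of genes were called lower and 0.308% higher. The GC bins of the 10 genes had medians between -0.23 and -0.09. JUN (-0.54), FOSL1 (-0.47) and DUSP1 (-0.33) lay below the medians of their bins, which were -0.15, -0.22 and -0.20. JUND at -0.19, IER2 at -0.14 and JUNB at -0.12 lay above the median of theirs.

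**Figure D3:**
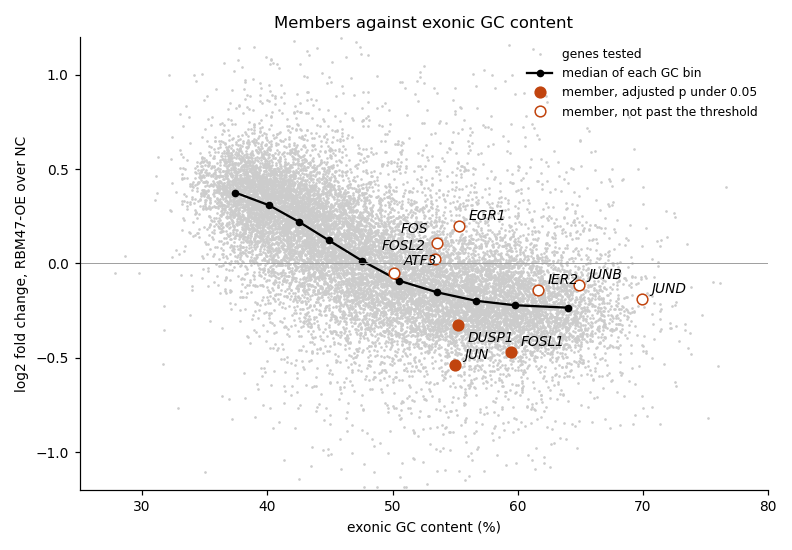
Log2 fold change of RBM47-OE over NC (y axis) against exonic GC content in percent (x axis). Grey dots are the genes tested (68 lie outside the axes), the black line joins the medians of 10 GC bins, and large circles are the 10 genes, filled where the adjusted p is under 0.05. The line falls from 0.38 to -0.23, and JUN, FOSL1 and DUSP1 lie below it while EGR1 and FOS lie above it.

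GC content was then entered as an offset, fitted separately in each library. In that fit FOSL1 was at -0.26 (SE 0.051, edgeR adjusted p = 0.00203) and JUN at -0.36 (SE 0.088, edgeR adjusted p = 0.00867), and both remained lower. DUSP1 was at -0.15 and did not pass (SE 0.088, edgeR adjusted p = 0.276). Thus 2 of 10 genes were called lower, beside 8.54% of all genes in this fit, and 0 of 10 higher, beside 6.1%. JUNB, JUND, IER2 and ATF3 changed sign, to 0.11, 0.06, 0.08 and 0.02, and 7 of the 10 values were then above 0. EGR1 was at 0.38 (edgeR adjusted p = 0.174), FOS at 0.26 (0.258) and FOSL2 at 0.17 (0.0566). The offset takes out any change that follows GC content, and the origin of that trend was not tested.

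**Figure D4:**
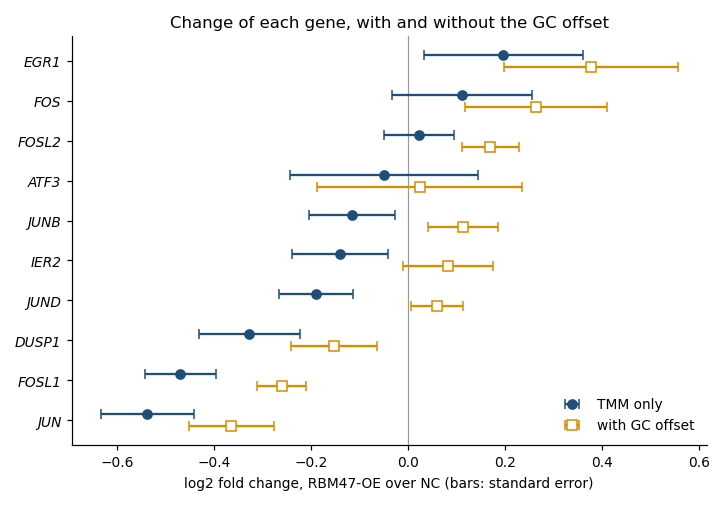
Log2 fold change of RBM47-OE over NC for each gene with TMM scaling only (filled circles) and with the GC offset (open squares). Bars are standard errors. JUN, FOSL1 and DUSP1 are below 0 by more than their standard error in both fits. JUNB, JUND, IER2 and ATF3 cross from below 0 to above it.

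The mRNAs differed in their AU-rich elements, short motifs in the 3' untranslated region (UTR) that mark immediate early mRNAs for rapid decay. The pentamer ATTTA was counted in the 3' UTR of the canonical GENCODE transcript. FOS had 5 copies in 806 bases, a density of 6.20 per kilobase, above 95.5% of genes tested with a 3' UTR of this kind. DUSP1 had 4 in 666 bases (6.01 per kilobase, above 95.0%). JUNB had 2 in 500 bases, ATF3 3 in 1220, JUN 3 in 1284, and FOSL2 9 in 4869. FOSL1, JUND and EGR1 had 1 each, and IER2 had 0. FOS and DUSP1 had like densities and log2 fold changes of 0.11 and -0.33. FOSL1 at -0.47, with 1.195 copies per kilobase, had fewer than the median gene (1.68 per kilobase). Whether these elements bear on the changes was not tested.

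The genes whose libraries were most like those of JUN, the gene with the largest called fall, were IRF7, SNHG15 and SLC43A2. Likeness was the root mean square difference of log2 CPM from the NC mean over the 6 libraries, among 10321 genes with a mean log2 CPM of at least 3. It was 0.0876 for IRF7, an interferon regulatory factor, 0.0922 for SNHG15, a snoRNA host gene, and 0.0981 for SLC43A2, an amino acid transporter. Their log2 fold changes were -0.45, -0.47 and -0.56. No gene was named for a rise, since none of the 10 was called higher.

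The wider pathway was described by 5 lists of genes. Of 114 genes tested in them, 22 rose and 33 fell in edgeR's test (19.3% and 28.9%, beside 19.1% and 16.9% of all genes) and 59 did not pass. The median log2 fold change was -0.06. With the GC offset 14 were called higher and 19 lower, beside 6.1% and 8.54% of all genes in that fit. Without NC replicate 2 only 11 were called higher. The counts of each list below stand beside these same shares of all genes. Of the 40 other immediate early genes, 3 rose and 9 fell, with a median of -0.10. With the GC offset 6 were called higher and 7 lower, and 1 was called higher without NC replicate 1, NC replicate 2 or RBM47-OE replicate 2. MCL1, a survival protein of the BCL2 family, rose by 0.25 (SE 0.070, edgeR adjusted p = 0.00656), and KLF6, a zinc-finger factor, by 0.25 (SE 0.073, edgeR adjusted p = 0.00959). CCN1, a secreted matrix protein, had 19.3, 18.0 and 16.2 CPM in NC and 7.67, 11.1 and 8.52 CPM in RBM47-OE. Its log2 fold change of -0.97 (SE 0.12, edgeR adjusted p = 1.59e-05) was the largest fall of the list. The study had picked CCN1 from these same libraries and also reported it lower by RT-qPCR. CXCL8, the chemokine IL-8, fell by 0.53 in log2 CPM (SE 0.17, edgeR adjusted p = 0.0143) at 2.79 to 4.76 CPM. Without NC replicate 1 CXCL8 did not pass, nor did KLF6, which also missed without NC replicate 2 or RBM47-OE replicate 2. CXCL8 was at -0.98 with the GC offset (edgeR adjusted p = 0.000429), where CCN1 was at -0.95 (edgeR adjusted p = 5.78e-05).

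Of the 14 other AP-1 and partner bZIP genes tested, 3 rose and 4 fell, with a median of 0.01, and with the GC offset 2 were called in each direction. ATF2, a bZIP factor that dimerizes with c-Jun, had 21.3, 23.7 and 23.9 CPM in NC and 34.7, 39.1 and 35.6 CPM in RBM47-OE. Its groups were well apart, and the log2 fold change was 0.67 (SE 0.088, edgeR adjusted p = 2.29e-05), or 0.31 with the GC offset (edgeR adjusted p = 0.0101). CREB1, the cAMP response factor, rose by 0.39 (SE 0.091, edgeR adjusted p = 0.00178) and was at 0.02 with the GC offset (edgeR adjusted p = 0.896). BATF2 fell by 0.73 (SE 0.20, edgeR adjusted p = 0.00535) and BATF3 by 0.55 (SE 0.18, edgeR adjusted p = 0.0184). Both encode short bZIP proteins that pair with JUN proteins, and both were low, at 1.72 to 4.41 CPM. BATF2 was at -0.53 with the GC offset and did not pass (edgeR adjusted p = 0.066). BATF3 did not pass without NC replicate 1, NC replicate 2 or RBM47-OE replicate 2.

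Upstream of the 10 genes, 9 of 23 kinases and factors rose and 7 fell, with a median of 0.14. RPS6KA5 and RPS6KA3, kinases downstream of ERK, rose by 0.45 (SE 0.11, edgeR adjusted p = 0.00239) and 0.44 (SE 0.088, edgeR adjusted p = 0.000534). With the GC offset neither passed, RPS6KA5 being at 0.11 (edgeR adjusted p = 0.415) and RPS6KA3 at 0.18 (edgeR adjusted p = 0.063). RPS6KA5 also missed with the length offset and in limma. MAP2K3, the kinase that activates p38, had 108.2, 113.6 and 104.7 CPM in NC and 77.2, 68.9 and 74.9 CPM in RBM47-OE. It fell by 0.56 in log2 CPM (SE 0.072, edgeR adjusted p = 1.59e-05). SRF, the factor that binds CArG boxes, had 86.2, 81.3 and 88.6 CPM in NC and 65.9, 63.5 and 65.1 CPM in RBM47-OE. It fell by 0.40 (SE 0.071, edgeR adjusted p = 0.000205), or by 0.18 with the GC offset (edgeR adjusted p = 0.0437). With the GC offset 1 gene of this list was called higher and 3 lower, and its median was -0.03.

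Among 17 feedback inhibitors of MAP kinases, 4 rose and 6 fell, with a median of -0.08. With the GC offset 2 were called higher and 3 lower. The number called higher was 1 without NC replicate 2 or NC replicate 3, and 2 without NC replicate 1 or RBM47-OE replicate 2. DUSP10, a phosphatase of p38 and JNK, rose by 0.59 (SE 0.21, edgeR adjusted p = 0.0263), at 1.91 to 4.14 CPM and with overlapping groups. It missed with the GC offset (0.46, edgeR adjusted p = 0.134), in DESeq2 on all genes and in limma. It also missed without NC replicate 2, NC replicate 3, RBM47-OE replicate 2 or RBM47-OE replicate 3. SPRED1, an inhibitor of RAS signaling, rose by 0.43 (SE 0.083, edgeR adjusted p = 0.00043) and was at 0.06 with the GC offset (edgeR adjusted p = 0.574). DUSP2, a nuclear phosphatase, fell by 0.69 (SE 0.17, edgeR adjusted p = 0.00251), and DUSP7, an ERK phosphatase, by 0.54 (SE 0.10, edgeR adjusted p = 0.000314). DUSP2 was at -0.47 with the GC offset and did not pass (edgeR adjusted p = 0.0701).

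Of 20 tested genes from a list of reported AP-1 targets, 3 rose and 7 fell, with a median of -0.09. With the GC offset 3 were called higher and 4 lower. Without NC replicate 2, edgeR called 0 higher (2 at an unadjusted p-value under 0.05) and 4 lower. It called 1 higher without NC replicate 1, 3 lower without NC replicate 3 and 4 lower without RBM47-OE replicate 2. LAMB3, a laminin chain, had 96.4, 93.2 and 101.0 CPM in NC and 66.2, 62.0 and 60.0 CPM in RBM47-OE. It fell by 0.63 in log2 CPM (SE 0.072, edgeR adjusted p = 7.06e-06). AXL, a receptor tyrosine kinase, fell by 0.41 (SE 0.074, edgeR adjusted p = 0.000225). ITGA2, an integrin subunit, rose by 0.32 (SE 0.088, edgeR adjusted p = 0.00588), and VEGFA, the angiogenic factor, by 0.25 (SE 0.086, edgeR adjusted p = 0.0259), the last with overlapping groups. ITGA2 was at 0.03 with the GC offset and did not pass (edgeR adjusted p = 0.819). VEGFA was at 0.43 with the GC offset (edgeR adjusted p = 0.00113), but missed with the length offset and in limma. ITGA2 missed without NC replicate 2 or RBM47-OE replicate 3, and VEGFA without NC replicate 1, NC replicate 2 or RBM47-OE replicate 2.

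**Figure D5:**
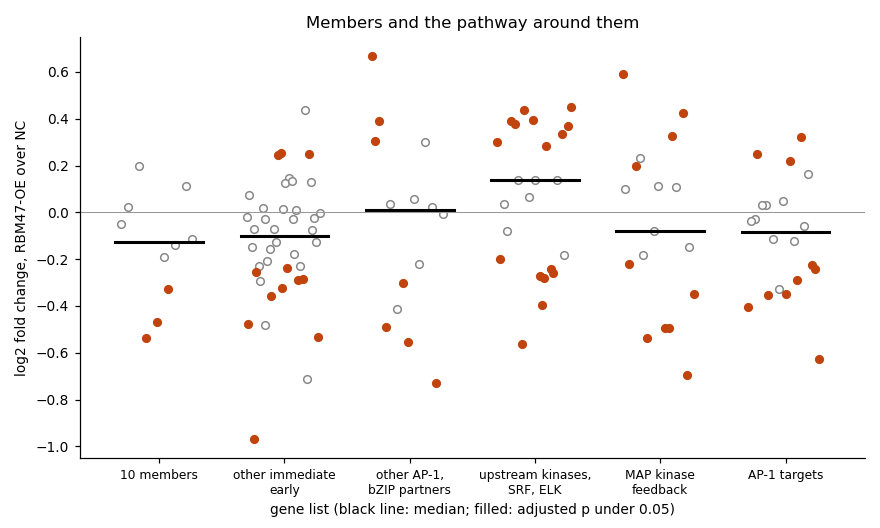
Log2 fold change of RBM47-OE over NC for each gene tested in the 10 genes and 5 pathway lists. Filled points have an edgeR adjusted p under 0.05, open points do not, and black lines are medians. The median is 0.14 for upstream kinases and factors and between -0.13 and 0.01 for the others, with CCN1 the lowest point at -0.97.

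Some of the counts could include reads of neighbours. Exons of JUNB overlap HOOK2 on the opposite strand, a gene with 950 to 1328 counts per library and a log2 fold change of -0.10 (SE 0.084, edgeR adjusted p = 0.385). Exons of IER2 overlap 2 lncRNA genes on the opposite strand, with 445 to 920 and 3 to 11 counts. The paper's methods name a stranded mRNA library kit, whereas the labels name a different kit. The sources used here do not say whether counting used strand. FOSL1, JUN and DUSP1 have no exon shared with another gene of the annotation.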

How the data were processed

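RNA-seq of 6 HCT116 libraries was used, 3 NC and 3 RBM47-OE. The authors trimmed reads with FASTX-Toolkit, used HISAT2 for alignment to GRCh38 and kept reads mapped at 1 place for counting. The deposited counts are not normalized, and the authors calculated the deposited FPKM from the same alignments. The counting tool, annotation release and strand setting are not given in the sources used here. The submitters' processing notes also name DESeq2.

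Counts were filtered with filterByExpr (minimum count 10, minimum total 15), scaled by TMM and tested with edgeR 4.0.16 in R 4.3.3 (glmQLFit, glmQLFTest, condition only). P-values were adjusted over all 16260 genes by Benjamini-Hochberg. Each standard error is |log2 fold change|/√F. Log2 CPM used a prior count of 2. Exonic GC content, length and coordinates came from GENCODE 44 and hg38, and offsets for GC and for length came from loess (span 0.3) in each library. Alternatives were DESeq2 1.42.0, limma 3.58.1 on log2(FPKM + 1) and log2(FPKM + 0.1) with a minimum mean FPKM of 0.1 or no minimum for the first, RLE factors, library totals, other filters, the replicate number as a block, and each library left out.

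On counts simulated for RBM47-OE against NC (16070 genes, 200 changed by 2-fold), edgeR recovered 200 and called 10 unchanged genes. With a simulated GC trend (16044 genes), it called 3893 unchanged genes without the offset and 8 with it. That trend was a straight line, the same in every RBM47-OE library, with a single dispersion for all genes. In the data the medians of the lowest and highest GC bins were 0.20 and -0.12 in RBM47-OE replicate 1. They were 0.47 and -0.31 in RBM47-OE replicate 3. The simulation therefore does not show how well the offset works on these data.

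Named genes were the 10 genes, RBM47, markers, up to 2 called genes in each direction per list (mean log2 CPM 0 or more), and the 3 genes most like the called member with the largest rise or fall. Exceptions are stated. The genes and lists were chosen with earlier results of these data known.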

Additional observations from a re-analysis of the deposited data

How the results depend on the processing

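FOSL1 and JUN were lower under every alternative, and FOSL1 passed an adjusted p-value of 0.05 in each. JUN missed it only in limma on log2(FPKM + 1) without a filter (-0.43, adjusted p = 0.0782). DUSP1 was lower throughout but missed it with library totals (-0.26), the GC offset (-0.15), the GC offset with the replicate block (-0.16), the length offset (-0.23), and limma on log2(FPKM + 1) with or without a filter (-0.23) and on log2(FPKM + 0.1) (-0.26). JUND passed in DESeq2 on all genes (-0.18), and EGR1 without a filter (0.20) and with the GC offset and block (0.29).

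Signs turned with the GC offset for JUNB (0.11), JUND (0.060), ATF3 (0.024) and IER2 (0.082), with the GC offset and block for JUNB (0.11), JUND (0.061) and IER2 (0.061), with the length offset for FOSL2 (-0.045), and with library totals for ATF3 (0.023). With 1 library left out, log2 fold changes ran from -0.16 to 0.29 for FOS, -0.035 to 0.072 for FOSL2, -0.19 to 0.018 for JUNB, -0.26 to -0.13 for JUND, -0.23 to 0.43 for EGR1, -0.57 to 0.25 for ATF3, -0.30 to 0.0069 for IER2 and -0.40 to -0.23 for DUSP1. The cause was not tested.

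Of the 10 genes, 1 was called higher without a filter and with the GC offset and block, and 0 or 1 with 1 library left out. Called lower were 1 in limma on log2(FPKM + 1) without a filter, 0 at the study's thresholds, and 2 to 5 with 1 library left out. The 5 without RBM47-OE replicate 2 included ATF3 and IER2. In the pathway lists, 14 genes were called higher and 19 lower with the GC offset, 13 and 18 with the offset and block, 9 and 11 in limma without a filter, and 2 and 4 at the study's thresholds. Limma on log2(FPKM + 1) and log2(FPKM + 0.1) with a filter called 20 lower. CREB1, BATF2, BATF3, KLF6, CXCL8, RPS6KA3, DUSP2, DUSP7 and ITGA2 missed in limma without a filter, and MCL1 and SRF with the GC offset and block. With 1 library left out 11 to 23 were higher, with 11 without NC replicate 2, and 22 to 38 lower.

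The replicate numbers did not pair the samples: deviations of same-numbered libraries correlated at -0.060, -0.015 and -0.016 over 16260 genes. The replicate block alone called 0 of the 10 genes higher and 3 lower. With 3 libraries a group, small changes of EGR1, ATF3, FOS and IER2 were not detectable beside their spread.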
